A study of Mus musculus with 7 samples.

Results

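The anterior *Hox* genes analysed were *Hoxa2*, *Hoxa3*, *Hoxb1*, *Hoxb2*, *Hoxb3*, *Hoxd1* and *Hoxd3*, which belong to paralog groups 1 to 3 and lie in the *HoxA*, *HoxB* and *HoxD* clusters on chromosomes 6, 11 and 2. They were chosen by name, and the regions studied run from 5 kb upstream to 5 kb downstream of each gene body in GRCm38. These 7 genes were 7 of 24952 genes with a curated RefSeq transcript, and their windows held 66 of the 210347 accessible elements found in the whole data set. ATAC-seq, in which a transposase cuts open DNA and tags it for sequencing, was performed on cells sorted from the second heart field (SHF) region of E9.5 mouse embryos. There were 2 libraries of GFP+ cells (replicates 3 and 4) from Hoxb1GFP embryos, 2 of GFP- cells (replicates 1 and 2), 2 of Tomato+ cells (replicates 6 and 8) from Mef2c-Cre;RosatdT embryos and 1 of Tomato- cells (replicate 7). The label of the Tomato- library names the Mef2c-Cre line, but those of the GFP- libraries name no mouse line, so whether GFP+ and GFP- cells came from the same embryos is not given, and this bears on every comparison of the pair.

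*Hox* genes encode homeodomain transcription factors that lie in clusters, and the genes at the 3′ end of each cluster, the anterior ones, are switched on first and closest to the head. Retinoic acid acts early and directly on this end of the clusters, through receptors bound to paired repeats in the DNA, and HOX proteins bind many sites together with PBX and MEIS cofactors. In the heart field, *Hoxb1* and its neighbours mark the posterior progenitors that contribute to the venous pole and to the base of the outflow tract.

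GFP in the Hoxb1GFP line reports *Hoxb1* expression in posterior SHF progenitors. The study's methods list Hoxb1GFP as an allele of *Hoxb1* itself, and the zygosity of the sorted embryos was not given in the sources used here, so in that line reads at *Hoxb1* may come partly from an altered allele. In the other line, a transgene with the anterior heart field element of *Mef2c* drives Cre, which switches on tdTomato from the *Rosa* locus in progenitors of the outflow tract and right ventricle and in a small overlap with the posterior SHF. Embryos of a genotype were pooled before sorting. GFP+ and Tomato+ cells came from different mouse lines, which means that the effects of population and of line cannot be told apart. Nothing in the labels says that libraries of a group came from separate pools. The tests below therefore measure the spread between these libraries, which may be technical. In sorted pools of cells, a smaller share of cells with an open site and weaker opening in every cell cannot be told apart either.

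The 7 libraries held between 52340120 and 93074895 tags, computed from the background rate of each list, and between 187914 and 291287 deposited peaks. The fold enrichment of a peak is the pileup of tags at its summit over the background that the peak caller estimated around it, with 1 added to each. Its list rank, printed as a top percentage, is its place by fold enrichment within the list of its own library. Peaks with a false discovery rate (q) of at most 0.01 in any library were merged into elements where they shared at least 1 bp. In each library an element took the deposited peak, of any q, with the highest fold enrichment that overlapped it. A position without a deposited peak had p above 0.01 there and was not measured as zero. Pairs of values below are given for replicates 3 and 4 (GFP+), 6 and 8 (Tomato+) and 1 and 2 (GFP-), in that order. As a check of the sorted populations, the strongest peaks at the promoters of posterior SHF genes (*Tbx5*, *Osr1*, *Foxf1*, *Tbx18*, *Wnt2*, *Aldh1a2* and *Nr2f2*) reached q of at most 0.01 for 6 of 7 genes in each GFP+ library and for 5 of 7 in each Tomato+ library. The summed fold enrichment of these 7 promoters was 30.03 and 23.4 (GFP+), 22.8 and 19.98 (Tomato+), 20.2 and 26.5 (GFP-) and 21.0 (Tomato-). GFP- replicate 2 was thus above GFP+ replicate 4, and it also had 6 of 7 genes at this q. At *Foxf1* both Tomato+ libraries (4.37 and 3.69) were above both GFP+ libraries (3.04 and 2.68). The promoters of these markers did not separate GFP+ from GFP- cells. The corresponding count for anterior SHF genes was 4 of 6 in each of these 4 libraries. Neural tube promoters were open in every library too (4 or 5 of 5), so promoter peaks alone did not separate these cell types. For *Sox10*, *Foxd3* and *Tfap2b*, which mark neural crest, there was 1 such promoter of 3 in each GFP+ library and in Tomato+ replicate 8. There was no such promoter in Tomato+ replicate 6, in either GFP- library or in the Tomato- library.

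The windows of the anterior *Hox* genes were dense in accessible elements. Between 65 and 83 deposited peaks per library fell into them, of which 24 to 37 had q of at most 0.01, and 19 to 28 peaks per library overlapped no element. The *Hoxb1* window held 3.997 elements per 10 kb, that of *Hoxb3* 3.93, *Hoxa3* 3.89, *Hoxd3* 3.46, *Hoxb2* 3.23 and *Hoxa2* 3.22, against a median of 1.30 over the windows of 24527 genes. *Hoxd1* stood apart with 1.64 elements per 10 kb, a density that 39.0% of genes exceeded, while 2.78% to 7.25% of genes exceeded the density of the others. The long windows of *Hoxa3*, *Hoxb3* and *Hoxd3* span *Hox* genes of other paralog groups, which bring elements of their own.

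Most of these elements were weak. The median peak in the windows had a fold enrichment between 2.35 and 2.87, and in every library but GFP+ replicate 3 it lay in the lower part of the list, between the top 55.9% and the top 75.0% (39.5% in GFP+ replicate 3). The best peak of the windows was among the top 4.14% to 13.7% of its list. The local background under the peaks of the windows was 1.63 to 2.24 times the lowest background of the library, and a raised background lowers a fold enrichment. Of the 66 elements, 19 (28.8%) had a deposited peak in all 7 libraries, against 16.2% of all elements, and 15 (22.7%) had a peak in a single library, against 35.4%. By the base at their strongest summit, 30 elements lay in introns, 15 in coding exons, 8 between genes, 6 in 5′ UTRs, 5 in exons of noncoding RNAs and 2 in 3′ UTRs. The nearest transcription start site (TSS) belonged to an anterior *Hox* gene for 20 elements. The others were nearest to neighbouring *Hox* genes or to the antisense and other noncoding RNAs that fill the clusters, and with protein-coding TSSs alone 39 elements were assigned to the 7 genes.

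The accessibility of the promoters differed widely among the 7 genes, and several of them had no peak in some libraries. Taking the strongest peak from 1000 bp upstream to 100 bp downstream of a curated RefSeq TSS, *Hoxd1* had the highest median fold enrichment over the libraries with a peak (5.01), followed by *Hoxd3* (3.54), *Hoxb1* (3.41), *Hoxa2* (2.73), *Hoxb2* (2.63) and *Hoxa3* (2.12), and *Hoxb3* had no peak there in any library. Only *Hoxd1* reached q of at most 0.01 in all 7 libraries, *Hoxb1* reached it in 6, *Hoxa2* and *Hoxd3* in 4, and *Hoxb2* in 2. These medians rest on different libraries, since *Hoxd3* and *Hoxb2* had a peak in 4, *Hoxa3* in 2 and the others in 7. With a library without a peak placed last, the median rank among all genes put *Hoxb1* (top 51.1%) ahead of *Hoxd3* (top 53.5%), both after *Hoxd1* (top 35.8%). Over the libraries with a peak, the ranges of neighbours in the order of medians overlapped at every step from *Hoxd1* to *Hoxa3*. By comparison, 48.1% of all genes had a promoter peak with q of at most 0.01 in all 7 libraries.

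**Figure D1:**
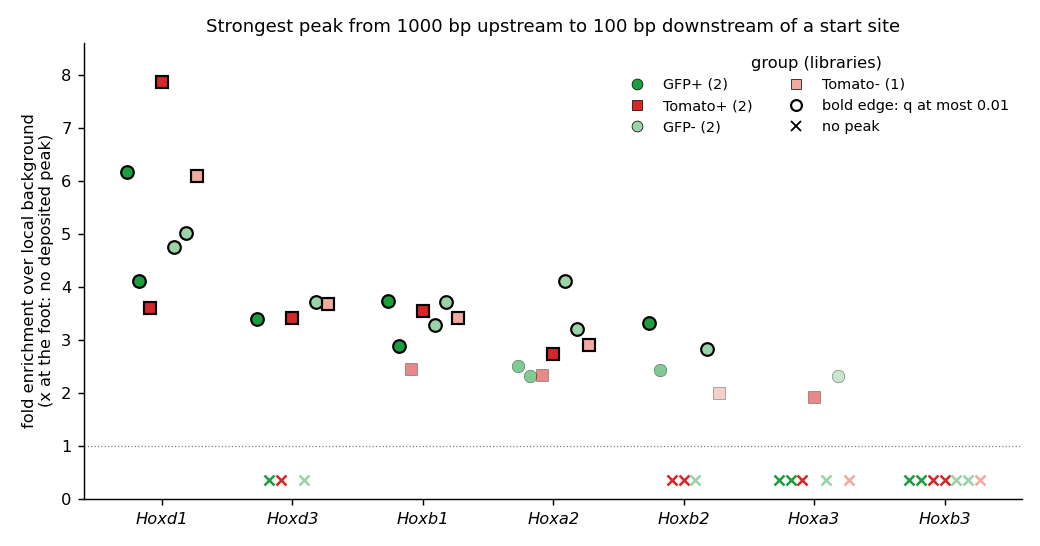
Fold enrichment (y axis, linear, no unit) of the strongest deposited peak from 1000 bp upstream to 100 bp downstream of any curated TSS of each anterior *Hox* gene, with 1 point per library, coloured by group, a bold edge where q was at most 0.01, and a cross where the library had no peak. *Hoxd1* lay between 3.61 and 7.85 in the 7 libraries, *Hoxb1* between 2.44 and 3.73, and *Hoxb3* had crosses only.

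Paralog group 1. *Hoxb1*, which patterns the hindbrain and marks the posterior SHF, has its TSS at position 96365758 of chromosome 11, on the plus strand. The element that holds it spans chr11:96365516-96366403 and had a peak with q of at most 0.01 in all 7 libraries. The values were 3.73 and 2.88 (GFP+), 3.49 and 3.54 (Tomato+), 3.28 and 3.71 (GFP-), and 3.41 (Tomato-). The values of GFP+, Tomato+ and GFP- cells overlapped, and GFP+ replicate 4 was the lowest of all 7. The difference was -0.09 on the log2 scale (95% interval -0.62 to 0.45) between GFP+ and Tomato+ cells and -0.14 (-0.68 to 0.39) between GFP+ and GFP- cells (limma). The element at the *Hoxb1* TSS was thus not measurably higher in the cells sorted for *Hoxb1* expression, although these intervals allow moderate differences in either direction. Its value in Tomato+ replicate 6 came from a peak with its summit 599 bp downstream of the TSS. Within the promoter window, that library had the lowest value of the 7 (2.44), and GFP+ and Tomato+ values still overlapped. The promoter window itself was not tested.

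The position of the *Hoxb1* peak varied more than its height. Relative to the TSS the summit lay at -91 and -126 bp in the GFP+ libraries, at -119 bp in Tomato+ replicate 8 and at -120 bp in GFP- replicate 2. It lay downstream, at 92, 231 and 599 bp, in GFP- replicate 1, Tomato- replicate 7 and Tomato+ replicate 6. In Tomato+ replicate 6 the strongest peak in the promoter window was another, weaker peak with a fold enrichment of 2.44, and the list rank of the *Hoxb1* promoter ran from the top 12.4% of the list in GFP+ replicate 3 to the top 78.97% in Tomato+ replicate 6, with a median of 20.5%. These peaks rested on few tags, between 12 and 22 at the summit of the element, and an exact 95% Poisson interval for 16 tags runs from 9.15 to 26.0, which covers counting error only. The 250 bases before the TSS, at chr11:96365508-96365757 on the plus strand (RefSeq, GRCm38.p6), are shown because both summits of GFP+ cells fell within them. Capitals mark the match to the bipartite PBX-HOX motif TGATNNAT.

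Hoxb1 promoter: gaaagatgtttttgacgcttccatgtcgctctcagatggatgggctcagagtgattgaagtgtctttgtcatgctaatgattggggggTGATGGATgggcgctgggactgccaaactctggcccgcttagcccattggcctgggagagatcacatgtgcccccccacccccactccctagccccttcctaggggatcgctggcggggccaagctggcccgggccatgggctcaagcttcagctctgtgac

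This match lay at -159 bp from the TSS, and 8.85% of 32851 RefSeq promoters of 300 bp held a match to the same letters on either strand. A match to letters is a description and not evidence that a protein was bound. Of 5625 promoter elements of other genes that varied at least as much as the median element, those with a pattern across the 7 libraries most like the element at the *Hoxb1* TSS included *Ddx21* (Pearson's r = 0.97 over 7 libraries), *Iqce* (0.94) and *Zfp934* (0.92). They were picked from the highest of 5625 correlations, and the *Hoxb1* element itself varied little, with an SD of 0.13 on the log2 scale against a median of 0.25 over elements.

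A weaker element upstream of *Hoxb1* was found in the GFP+ libraries but in no Tomato+ library. It spans chr11:96364089-96364230, between genes, with its strongest summit at -1629 bp from the TSS. The fold enrichment was 3.02 and 4.05 (GFP+) and 2.45 in GFP- replicate 2, and the other 4 libraries had no peak. Both GFP+ libraries lay above all others, but q was at most 0.01 in GFP+ replicate 4 alone, and only through that library did the element enter the set. The summit pileups were 12 tags (95% Poisson interval 6.20 to 21.0) and 21 tags (12.999 to 32.1) in the GFP+ libraries, and 10 tags (4.80 to 18.4) in GFP- replicate 2. Its whole sequence on the plus strand is shown because it had the largest difference in element rank, defined below, of those with GFP+ above Tomato+ libraries, with capitals for the bases covered by the peaks of both GFP+ libraries.

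Hoxb1 upstream element: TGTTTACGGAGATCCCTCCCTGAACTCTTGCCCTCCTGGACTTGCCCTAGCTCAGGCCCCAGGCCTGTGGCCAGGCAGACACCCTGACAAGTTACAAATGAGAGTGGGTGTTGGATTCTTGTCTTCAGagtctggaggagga

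Downstream of the TSS, *Hoxb1* had a pair of further elements in which both sorted populations lay above GFP- cells. Within the gene, the element at chr11:96366616-96367066, whose strongest summit is in a coding exon, had fold enrichments of 3.54 and 2.51 (GFP+), 3.72 and 3.24 (Tomato+) and 2.07 in GFP- replicate 1, and no peak in GFP- replicate 2 and Tomato- replicate 7. Every GFP+ and Tomato+ library was above every GFP- and Tomato- library here, and GFP+ and Tomato+ libraries overlapped. The peaks had q of at most 0.01 only in GFP+ replicate 3 and Tomato+ replicates 6 and 8. This element thus entered the set through the sorted populations alone, and its higher values there follow in part from that choice. On the 3′ side of the gene, the element at chr11:96372469-96372814, with its strongest summit 6834 bp downstream of the TSS, had fold enrichments of 4.78 and 2.99 (GFP+), 3.94 and 2.83 (Tomato+) and 4.08 (Tomato-). Neither GFP- library had a peak in it. It entered the set through GFP+ replicate 3, Tomato+ replicate 6 and the Tomato- library. Its higher values than in GFP- cells follow in part from that choice. Of the elements with GFP+ above GFP- libraries it had the largest difference in element rank, while the Tomato- library was above both Tomato+ libraries. A second element of this 3′ region, at chr11:96372874-96373022, had a peak in GFP+ replicate 3 only, with a fold enrichment of 4.83.

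*Hoxd1*, the group 1 gene of the *HoxD* cluster, had the most accessible promoter of the 7 genes and also the largest spread between replicates. Its element at chr2:74762624-74764025 holds both its TSS and that of the divergent noncoding RNA *Haglr*. The strongest summit lay 42 bp from each, and the element was counted with *Haglr*. The fold enrichment was 6.16 and 4.11 (GFP+), 3.61 and 7.85 (Tomato+), 4.74 and 5.01 (GFP-) and 6.10 (Tomato-). The Tomato+ libraries were the lowest and the highest of the 7, so all groups overlapped. The 2.18-fold gap between the Tomato+ replicates was large for this pair: Tomato+ replicate 8 exceeded replicate 6 by as much or more at 254 of the 55331 elements with a peak in both (0.459%), and a gap of this size in either direction was found at 1.04%. The difference between GFP+ and Tomato+ cells was -0.02 on the log2 scale (95% interval -0.71 to 0.67). The 250 bases before the TSS, at chr2:74762730-74762979 on the plus strand (RefSeq, GRCm38.p6), are shown for their content of CpG dinucleotides, in capitals.

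Hoxd1 promoter: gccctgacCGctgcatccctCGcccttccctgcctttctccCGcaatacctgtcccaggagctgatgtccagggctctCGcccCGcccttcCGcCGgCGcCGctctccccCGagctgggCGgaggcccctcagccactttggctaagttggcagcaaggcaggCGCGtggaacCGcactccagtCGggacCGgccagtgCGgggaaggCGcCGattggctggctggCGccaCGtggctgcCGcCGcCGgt

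Of the 7 genes, 5 had an entry in the RefSeq promoter table, which covers 250 bases before to 50 after a TSS; *Hoxb2* and *Hoxb3* were the others. The *Hoxd1* promoter had 29 CpG dinucleotides and 69.7% G and C, against a median of 7 CpG over all promoters, and 11.7% of promoters had more CpG. *Hoxa3* and *Hoxd3* had 20 each, *Hoxb1* 10 and *Hoxa2* 9. The order of CpG content did not follow that of accessibility, since *Hoxa3*, with 20, had nearly no promoter peak.

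Paralog group 2. *Hoxa2*, which patterns the hindbrain and the second pharyngeal arch, had a promoter in which GFP- libraries lay above GFP+ libraries. The element at chr6:52165064-52165311, with its strongest summit at -387 bp from the TSS, had fold enrichments of 2.51 and 2.31 (GFP+), 2.34 and 2.73 (Tomato+), 4.10 and 3.21 (GFP-) and 2.90 (Tomato-). Both GFP- libraries were above both GFP+ and both Tomato+ libraries, and the Tomato- library was above both Tomato+ libraries. The difference between GFP+ and GFP- cells was -0.63 on the log2 scale (95% interval -1.12 to -0.13), with an adjusted p of 0.701 over all elements (limma, Benjamini-Hochberg), so it did not pass the test. A second element, inside the gene at chr6:52164020-52164573, had a peak in 6 libraries, with fold enrichments of 3.51 and 2.56 (GFP+), 2.57 in Tomato+ replicate 8, 3.39 and 2.47 (GFP-) and 2.26 (Tomato-). GFP+ and GFP- libraries overlapped in it. It held 2 matches to the PBX-HOX motif, 277 and 295 bp downstream of the TSS.

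The strongest element of the *Hoxa2* window was nearest the TSS of *Hotairm1*, a noncoding RNA of the *HoxA* cluster, with its strongest summit 378 bp downstream of that TSS. It is singled out here after its values were seen, because it had the smallest unadjusted p of all elements tested here. Its fold enrichment was 6.06 and 5.71 (GFP+), 3.72 and 3.65 (Tomato+), 4.65 and 4.74 (GFP-) and 4.50 (Tomato-). The GFP+ libraries were the 2 highest, the Tomato+ libraries the 2 lowest, and the sort-negative libraries lay between them. The difference between GFP+ and Tomato+ cells was 0.70 on the log2 scale (95% interval 0.16 to 1.24) and did not pass the test (limma, adjusted p = 0.408).

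*Hoxb2*, the group 2 gene of the *HoxB* cluster, had a weak and patchy promoter. The small element at -137 bp from its TSS, at chr11:96351441-96351550, had a peak in GFP+ replicate 3 (fold enrichment 3.32) and GFP- replicate 2 (2.82) only. The next element downstream, at chr11:96351798-96352297 in a coding exon, had a peak in every library, with fold enrichments of 3.20 and 2.66 (GFP+), 2.26 and 2.90 (Tomato+), 3.06 and 3.42 (GFP-) and 2.99 (Tomato-). GFP+ libraries overlapped with Tomato+ and with GFP- libraries. A further element, at chr11:96353225-96353363 in the coding sequence, had a peak in both GFP- libraries (2.66 and 2.397) and in Tomato+ replicate 8 (2.99), and in neither GFP+ library.

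Paralog group 3. *Hoxa3*, which is needed for the third pharyngeal arch and its thymus and parathyroid, had nearly no accessibility at the curated TSS, where weak peaks appeared in Tomato+ replicate 8 (fold enrichment 1.93) and GFP- replicate 2 (2.31) and neither had q of at most 0.01. An element in an intron 953 bp downstream, at chr6:52212071-52212161, had a peak in Tomato+ replicate 8 only (3.03). The intron element at chr6:52211336-52211900 was broader in its presence, with fold enrichments of 3.27 and 3.70 (GFP-), 2.98 in GFP+ replicate 4, 2.58 and 2.94 (Tomato+) and 2.85 (Tomato-). GFP- cells were above all other libraries in fold enrichment except for GFP+ replicate 3, which had no peak.

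The most constant element of the *Hoxa3* window lay far from that TSS, in a *Hoxa3* intron at chr6:52175272-52176284, nearest the TSS of the noncoding RNA LOC115490409. The fold enrichment was 4.14 and 4.001 (GFP+), 3.48 and 3.76 (Tomato+), 3.76 and 3.40 (GFP-) and 3.54 (Tomato-), all with q of at most 0.01. Both GFP+ libraries were above the other 5, by less than the 95% interval of the difference from Tomato+ cells, which was 0.18 on the log2 scale (-0.36 to 0.71). *Hoxb3* had no peak from 1000 bp upstream to 100 bp downstream of either curated TSS. Within 1000 bp of its downstream TSS, in exons, it had 3 short elements at chr11:96344124-96344225, chr11:96344271-96344374 and chr11:96344377-96344506, each with q of at most 0.01 in a single library. In the last of them the fold enrichment was 2.26 and 3.40 (GFP+), 2.398 in GFP- replicate 1 and 1.97 (Tomato-), with no peak in either Tomato+ library. Stronger *Hoxb3* elements were intronic in RefSeq, at chr11:96332717-96333337 (2.705 to 4.07 over the 7 libraries) and chr11:96340702-96341272 (2.25 to 3.63), and GFP+ replicate 3 was the highest and GFP+ replicate 4 the lowest in both. GENCODE vM21 places a *Hoxb3* TSS inside the latter element, at position 96340945, 105 bp from its strongest summit. The lack of a *Hoxb3* promoter peak thus holds for the curated RefSeq TSSs only.

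Both of these introns of *Hoxa3* and *Hoxb3*, and the 3′ side of *Hoxb1*, carried the same kind of sequence. A direct repeat of the retinoic acid receptor recognition unit with a spacer of 5 bases (DR5) was found in 3 of the 66 elements, the *Hoxb3* element at chr11:96340702-96341272, the *Hoxb1* 3′ element and the *Hoxa3* element. In windows of 401 bp centred on the strongest summit, a DR5 occurred in 0.211% of all 210347 elements. Such a repeat lay in 3 of the 66 windows here, where the neighbouring *Hoxb1* 3′ elements share a repeat, and that of the *Hoxb3* element lay 194 bp from its summit, partly beyond its window. The 3 repeats are shown with 50 bases on each side of their centre, on the strand that reads as the repeat, with the repeat in capitals. They come from chr11:96341194-96341294 (plus strand), chr11:96372734-96372834 (plus strand) and chr6:52175491-52175591 (minus strand) of GRCm38.

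Hoxb3 intron repeat: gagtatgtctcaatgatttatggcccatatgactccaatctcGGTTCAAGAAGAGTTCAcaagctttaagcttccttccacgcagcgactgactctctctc

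Hoxb1 3′ repeat: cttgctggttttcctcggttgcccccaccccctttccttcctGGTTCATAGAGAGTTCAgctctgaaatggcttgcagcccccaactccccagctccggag

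Hoxa3 intron repeat: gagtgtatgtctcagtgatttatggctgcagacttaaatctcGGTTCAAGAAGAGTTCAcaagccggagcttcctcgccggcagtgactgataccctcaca

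The repeats of the *Hoxb3* and *Hoxa3* introns were identical over all 17 bases, within a shared run of 28 bases, and the *Hoxb1* repeat matched each of them at 14 of 17 bases. The deposited peak covered the repeat in 6 of 7 libraries at *Hoxa3* and in 3 of the 5 libraries with a peak at the *Hoxb1* 3′ element, and in 1 of 7 at *Hoxb3*, where 6 of the 7 strongest peaks stopped short of it. At the *Hoxb1* 3′ element the libraries whose peak covered the repeat were GFP+ replicates 3 and 4 and Tomato+ replicate 8. Repeats with a spacer of 2 bases (DR2) were found in none of the 66 windows and in 0.49% of all windows. The PBX-HOX motif TGATNNAT was found in 10 of 66 windows (15.2%), near the share of 12.9% over all windows. The MEIS motif TGACAG was found in 7 of 66 (10.6%), against 27.5% over all windows. Both strands were searched, and these are counts of letters without a test. The windows differed in base composition, with a median of 59.2% G and C at the anterior *Hox* genes and 51.1% over all elements.

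*Hoxd3*, the group 3 gene of the *HoxD* cluster, had a promoter peak in 4 libraries, and its peaks in GFP+ replicate 4 and GFP- replicate 1 lay downstream of the promoter window. The element at its TSS, at chr2:74711922-74712665, had fold enrichments of 3.38 and 2.47 (GFP+), 3.41 in Tomato+ replicate 8, 3.03 and 3.70 (GFP-) and 3.67 (Tomato-), and no peak in Tomato+ replicate 6. The Tomato+ replicates thus differed from each other in whether a peak was called, and the values of GFP+ and GFP- cells overlapped. The strongest element of the *Hoxd3* window was at chr2:74715773-74716253, in an exon of the antisense noncoding RNA *Hoxd3os1*, with fold enrichments of 3.32 and 4.55 (GFP+), 3.95 and 6.52 (Tomato+), 4.19 and 4.26 (GFP-) and 4.22 (Tomato-). Tomato+ replicate 8 was the highest here too, as at *Hoxd1*.

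An element inside *Hoxd3* separated GFP+ from Tomato+ libraries. It lies in an intron at chr2:74740868-74741187, with fold enrichments of 3.51 and 3.08 (GFP+), 2.41 in GFP- replicate 2 and 1.84 (Tomato-), and no peak in Tomato+ replicates 6 and 8 and GFP- replicate 1. Both GFP+ peaks had q of at most 0.01 and no other library did, so the element entered the set through GFP+ cells alone. Its higher values in GFP+ cells follow in part from that choice. Their summits lay at positions 74741116 and 74740937. The first 250 bases of the element on the plus strand, chr2:74740868-74741117, are shown with capitals for the bases covered by both peaks.

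Hoxd3 intron element: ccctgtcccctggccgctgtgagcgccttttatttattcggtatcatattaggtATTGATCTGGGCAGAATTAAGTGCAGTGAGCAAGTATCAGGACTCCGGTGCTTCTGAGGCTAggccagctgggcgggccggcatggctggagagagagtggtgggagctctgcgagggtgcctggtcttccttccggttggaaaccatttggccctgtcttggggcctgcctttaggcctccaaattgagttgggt

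Neither this element nor the upstream element of *Hoxb1* held a match to the motifs searched in its 401 bp window. The RefSeq annotation has no *Hoxd3* TSS near the intron element, which was assigned to the noncoding RNA Gm14424, whereas GENCODE vM21 places a *Hoxd3* TSS 1497 bp upstream of its summit. Under GENCODE, 7 elements of the *Hoxd3* window were nearest a *Hoxd3* TSS, against none with curated RefSeq transcripts, an assignment that was added after the data were seen.

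**Figure D2:**
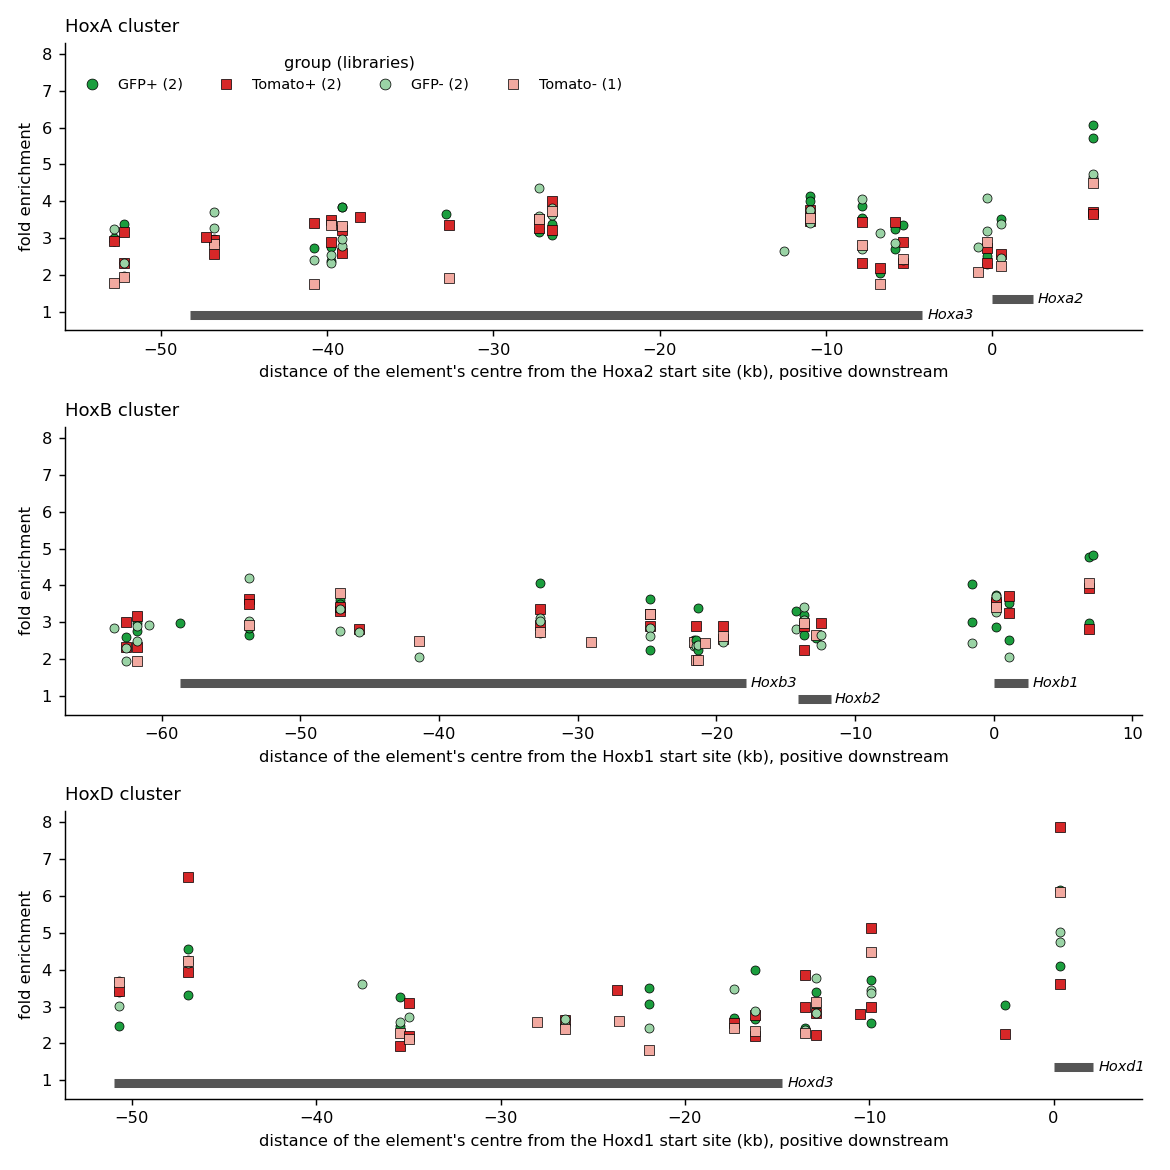
Fold enrichment (y axis, linear, no unit) of every element in the windows of the anterior *Hox* genes against the distance of the element's centre from the TSS of *Hoxa2*, *Hoxb1* or *Hoxd1* (x axis, kb, positive downstream), with 1 point per library that has a peak and grey bars for the bodies of the 7 genes. The highest point lay at *Hoxd1* (7.85), and high points also lay near *Hoxd3os1* (6.52) and *Hotairm1* (6.06).

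Whether chromatin at these genes differed between the populations was tested with limma on the quantile-normalised log2 fold enrichment of elements with a peak in all 7 libraries, which were 19 of the 66 elements here. The choice of elements present in all libraries leaves out those found in a single population. None of the 19 was called at an adjusted p of at most 0.1 in any comparison. Between GFP+ and Tomato+ cells, 0.141% of 34032 elements of the genome were called (48, of which 18 were higher in GFP+ cells), and 1 of the 19 had an unadjusted p under 0.05, against 9.26% of all elements. Between GFP+ and GFP- cells 0 of 34032 elements were called (0%), with 2149 (6.31%) at an unadjusted p under 0.05 and 1 of the 19. Between Tomato+ and Tomato- cells 0 of 34032 were called (0%), with 1155 (3.39%) at an unadjusted p under 0.05 and none of the 19, and the single Tomato- library was assumed to vary like the other groups. The median difference of the 19 elements was -0.02 between GFP+ and Tomato+ cells and 0.00 between GFP+ and GFP- cells, and their range was -0.38 to 0.70 and -0.63 to 0.36. Over all elements tested, the median difference was 0.01 in both comparisons.

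The precision was low. The median standard error over the 19 elements was 0.25 on the log2 scale in both comparisons of GFP+ cells. In simulated data with 200 elements changed between GFP+ and Tomato+ cells, the test recovered 162 when the change was 2 on the log2 scale and 1 when it was 1, over 34032 elements. The simulated noise took each element's own estimated spread, which is itself imprecise, so these counts are a rough guide to what the test can find. Differences of the size seen at the anterior *Hox* genes did not pass the test with these libraries, which does not show that the populations were alike.

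**Figure D3:**
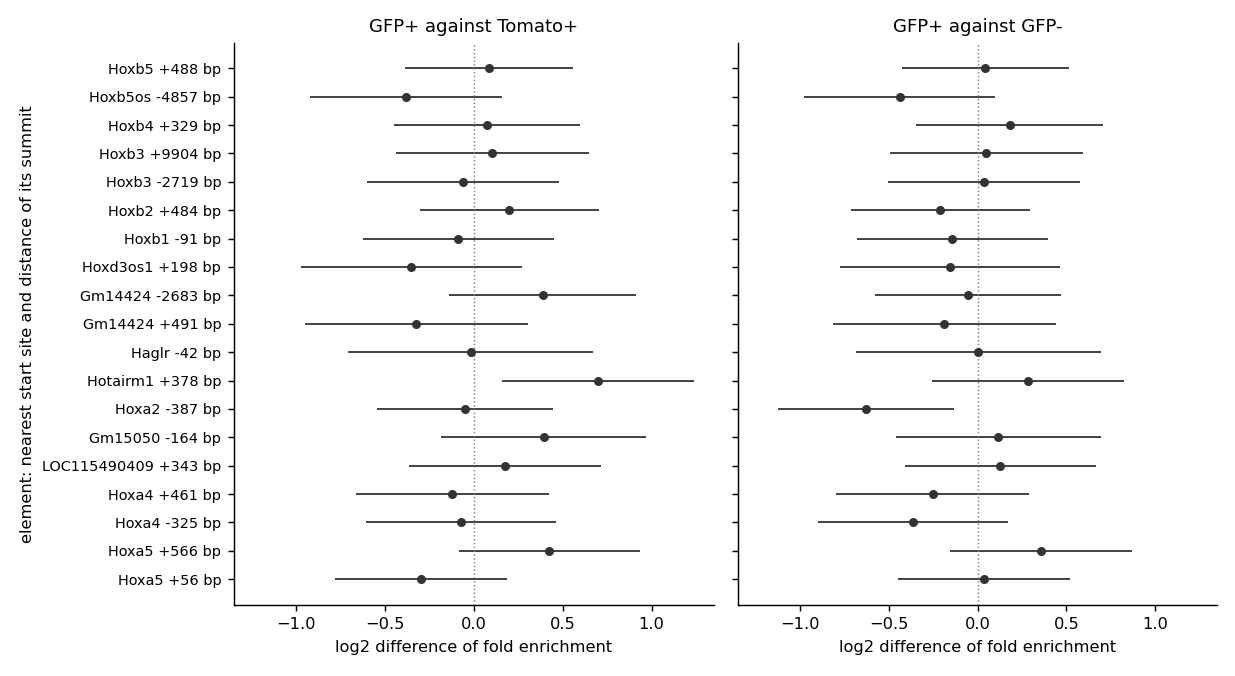
Differences in log2 fold enrichment (x axis) between GFP+ and Tomato+ cells and between GFP+ and GFP- cells for the 19 elements of the anterior *Hox* gene windows with a peak in all 7 libraries, named by nearest TSS and distance (y axis). Points are limma estimates and bars 95% intervals, and of the 19 only the element near *Hotairm1* (GFP+ against Tomato+, 0.70) and that upstream of *Hoxa2* (GFP+ against GFP-, -0.63) had intervals that left out 0, before adjustment.

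To include elements missing from some libraries, it was counted how often every library of a group ranked an element above every library of another group. This element rank is the place of an element by fold enrichment among all 210347 elements in a library, with elements without a peak below all others, and it can order libraries differently from the fold enrichment itself and from the list rank. Such a count has no p-value, and 2 libraries against 2 cannot give a two-sided exact permutation p under 0.333. Every GFP+ library ranked above every Tomato+ library at 9 of 56 elements with a peak in either group (16.1%), against 10.3% of all elements of the genome. The reverse held for 5 of 56 (8.93%), against 9.79%. GFP+ ranked above GFP- at 8 of 57 (14.0%), against 10.5%, and GFP- above GFP+ at 8 of 57 (14.0%), against 10.2%. Tomato+ ranked above Tomato- at 8 of 57 (14.0%), against 15.3%, and Tomato- above Tomato+ at 20 of 57 (35.1%), against 34.4%. For this last pair, 2 Tomato+ libraries were compared with a single Tomato- library, the deepest of the 7. These shares were close to those of the genome in each direction, so the counts alone did not set the anterior *Hox* genes apart.

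**Figure D4:**
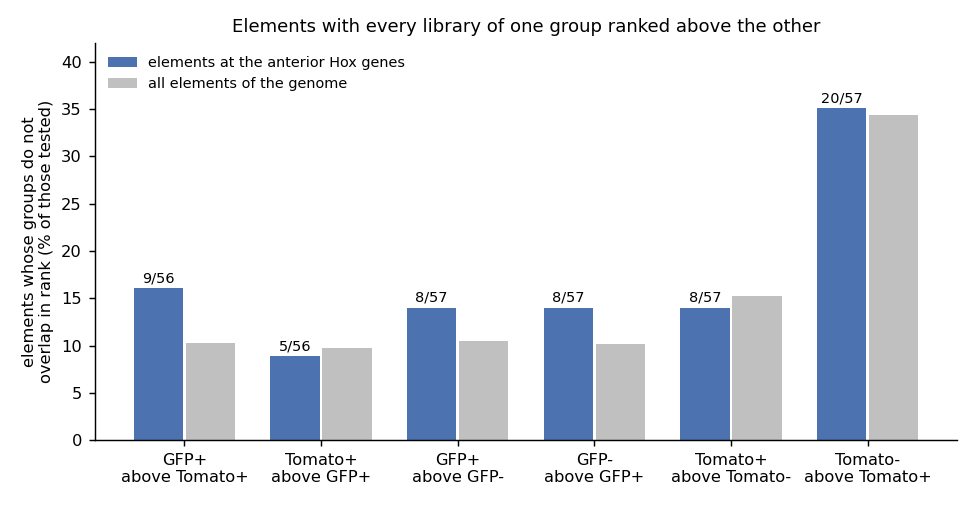
Share of elements (y axis, % of those with a peak in either group) for which every library of the first group ranked above every library of the second (x axis), at the anterior *Hox* genes (blue, with counts) and over all elements of the genome (grey). The blue bars lay within 6 percentage points of the grey ones in all 6 directions, at 9 of 56 for GFP+ above Tomato+ and 20 of 57 for Tomato- above Tomato+.

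The elements behind these counts lay at several genes. Of the 9 elements with GFP+ above Tomato+, the 5 with the largest differences in rank were the upstream element of *Hoxb1*, the intron element of *Hoxd3*, the exon element of *Hoxb3* described above, an element in a coding exon of *Hoxd4* at chr2:74727449-74727644 and an element in a coding exon of *Hoxa5* at chr6:52203620-52204227. The last had fold enrichments of 3.83 and 3.84 (GFP+), 3.21 and 2.61 (Tomato+), 2.79 and 2.99 (GFP-) and 3.34 (Tomato-). It was the element among these 5 with a peak in all libraries, and GFP+ libraries were above all others in it. The others among these 5 entered the set only through GFP+ peaks with q of at most 0.01. Their higher values in GFP+ cells follow in part from that choice. The 5 elements with Tomato+ above GFP+ were in the *Hoxd3* window at chr2:74727907-74728121 and chr2:74749344-74749661, in the *Hoxb3* window at chr11:96303099-96303292 and chr11:96311679-96312505, and in the *Hoxa3* window at chr6:52191808-52192369. None was nearest the TSS of an anterior *Hox* gene. The elements of the *Hoxd3* window and that at chr11:96303099-96303292 likewise entered the set only through Tomato+ peaks. At chr11:96311679-96312505, nearest the TSS of the noncoding RNA *Hoxb5os*, the fold enrichment was 2.66 and 2.84 (GFP+), 3.64 and 3.49 (Tomato+), 4.21 and 3.04 (GFP-) and 2.92 (Tomato-). Both GFP+ libraries were below all others there, which also placed it among the elements with GFP- above GFP+. The others of that last kind with the largest differences were an intron element of *Hoxd3* at chr2:74736397-74736561, the *Hoxb2* coding element and the *Hoxa3* intron and *Hoxa2* promoter elements described above. Of the 4 elements with GFP+ above GFP- and the largest differences, 3 were those at *Hoxb1* and the other was the *Hoxd3* intron element. No GFP- library had q of at most 0.01 in any of these 4. Their higher values in GFP+ than in GFP- cells thus follow in part from how elements were chosen.

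At the level of promoters, ranked by fold enrichment among those of all genes, *Hoxb2* was the only anterior *Hox* gene with both GFP+ libraries above both Tomato+ libraries, in which it had no peak, while 15.5% of all promoters with a peak were ranked in this way. None had Tomato+ above GFP+ (15.1% of all promoters), and none GFP+ above GFP- (15.5%). *Hoxa2* was the only one with GFP- above GFP+, against 15.6% of all promoters. With 6 genes that had any promoter peak, a single gene is close to these shares.

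The neighbouring *Hox* genes of groups 4 to 13 had promoters much like those of the anterior genes. Of 31 such genes, 10 (32.3%) had a promoter peak in all 7 libraries and 4 (12.9%) with q of at most 0.01 in all of them, against 3 of 7 (42.9%) and 1 of 7 (14.3%) for the anterior genes. In 6 of the 31, *Hoxa4*, *Hoxa5*, *Hoxa10*, *Hoxd8*, *Hoxd9* and *Hoxd13*, both Tomato+ libraries ranked above both GFP+ libraries, and in none the reverse. Over all 24952 genes, 2876 were ranked in this way and 2951 in the reverse. These were 15.1% and 15.5% of promoters with a peak in either group. That base leaves out several of the 31, such as *Hoxa6* and *Hoxb8*, so the share of the list is higher on it. GFP- libraries ranked above GFP+ libraries at 6 of the 31 as well, against 2956 of all 24952 genes, or 15.6% of promoters with a peak in either group. At *Hoxd8* the fold enrichment was 3.33 and 3.35 in GFP+ cells and 3.73 and 4.48 in Tomato+ cells. Genes within a cluster share their surroundings and are not independent.

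Genes that regulate anterior *Hox* genes or act with their products had, over the genes and libraries with a peak, a median promoter fold enrichment of 4.47, above the *Hox* lists (3.07 for the anterior genes and 2.92 for groups 4 to 13) and below all genes (4.72). Of 21 such genes, 16 (76.2%) had a promoter peak in all 7 libraries and 13 (61.9%) had q of at most 0.01 in all of them, against 55.4% and 48.1% of all genes. GFP+ libraries ranked above Tomato+ libraries at 5 promoters, *Aldh1a2*, which makes retinoic acid, *Cyp26a1*, which breaks it down, and the cofactor genes *Meis2*, *Pbx3* and *Pknox1*. The fold enrichment of *Aldh1a2* was 4.89 and 4.66 (GFP+) and 3.91 and 3.81 (Tomato+), and that of *Cyp26a1* was 4.32 and 3.16 against 2.84 and 3.09. At *Meis2* it was 7.06 and 4.76 against 4.47 and 3.86. In GFP- cells the values were 4.03 and 4.55 at *Aldh1a2* and 2.74 and 3.01 at *Cyp26a1*. They were 4.51 and 5.52 at *Meis2*, where GFP- replicate 2 was above GFP+ replicate 4. Promoters with Tomato+ above GFP+ libraries included *Pknox2* and the retinoic acid receptor gene *Rara*. These counts, 5 and 3 of 21, stand beside 2951 and 2876 of all 24952 genes (15.5% and 15.1% of promoters with a peak in either group) and were not tested as a list. GFP+ libraries ranked above GFP- libraries at 2 of the 21, and GFP- above GFP+ at 5. Over all genes these numbers were 2930 and 2956 (15.5% and 15.6% of promoters with a peak in either group).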

How the data were processed

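The series' ATAC-seq peak lists of 7 libraries were used. The authors aligned paired reads with SNAP to GRCm38 (mm10 in the labels), removed duplicates, improper pairs and blacklisted regions, and called peaks in each library without pooling. The methods and labels name MACS2 2.1.1, and the header of Tomato+ replicate 6, the only list with a header, names MACS 2.1.0.20150731, no control, a p-value limit of 0.01, tags shifted by 37 bp and extended to 73 bp, and a local background over 10000 bp. The labels also name bcl2fastq 2.17.1.14. The run name in that header contains the letters YFP, unlike its label, which was followed. The deposited signal is the pileup of tags at a summit, not scaled to depth. The deposited fold enrichment is the ratio of pileup to local background, and both significance columns deposited, -log10 of the p-value and of the q-value, grow with depth. The shift is towards the 3′ end of tags and can move summits.

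Tag totals were computed from the smallest background rate, 73 bp and a genome size of 1870000000 bp. Several summits of a peak were collapsed to that with the smallest p. Elements, ranks, promoter windows and limma tests (Benjamini-Hochberg, adjusted p at most 0.1, group means over all 7 libraries, trend) are as described in the text. The DiffBind test of the study could not be repeated, because the lists hold no read counts over shared peaks. TSSs were taken from curated RefSeq transcripts without microRNA precursors. Elements described individually are those within 1000 bp of a TSS of the 7 genes, those called, and up to 5 per direction with the largest rank difference whose GFP+ and Tomato+ or GFP+ and GFP- libraries do not overlap; the *Hotairm1*, *Hoxd3os1*, intronic and 3′ elements outside this rule were chosen after their values were seen. Some genes that met a naming rule are not reported here. The genes, lists and tests were chosen with earlier results of these data known. Merging, ranking, limma and motif searches were tested on simulated data. Promoter accessibility of cardiomyocyte, endoderm, and endothelium and blood genes was also counted, with q of at most 0.01 for 1 to 3 of 5, 0 to 2 of 4 and 1 to 3 of 5 genes per library. Software was limma 3.58.1 in R 4.3.3, and pysam 0.24.0, pandas 2.3.3, scipy 1.17.1, numpy 2.4.6 and matplotlib 3.10.9 in Python 3.11.15.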

Additional observations from a re-analysis of the deposited data

How the results depend on the processing

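None of the 66 elements was called by limma under median centring, depth-scaled pileup, an adjusted p of at most 0.05, peaks in the compared groups only, elements at q of at most 0.0001, or without any GFP+, GFP- or Tomato+ library (0 to 0). Over the genome, the 48 elements called between GFP+ and Tomato+ cells became 213 with pileups, 4 at an adjusted p of at most 0.05, 5 without either GFP- library, 10 and 3 without GFP+ replicates 3 and 4, and 31 and 134 without Tomato+ replicates 6 and 8. Between Tomato+ and Tomato- cells it was at most 4, without Tomato+ replicate 8. Ranked by pileup, elements with Tomato+ above GFP+ numbered 3 in place of 5 (3 by -log10 q also), those with Tomato+ above Tomato- 5 in place of 8, and those with Tomato- above Tomato+ 31 in place of 20. With elements at q of at most 0.0001 the counts between Tomato+ and Tomato- were 5 and 11. Without a library, fewer libraries had to agree and counts rose, to 12 to 19 for GFP+ above Tomato+, 10 to 21 for Tomato+ above GFP+, 11 to 20 for GFP+ above GFP-, 11 to 24 for GFP- above GFP+, 17 to 28 for Tomato+ above Tomato- and 25 to 36 for Tomato- above Tomato+. The windows held 34 elements at q of at most 0.0001, 158 with all deposited peaks, 75 when merging needed 50% of the shorter peak, and 60 to 65 without a library. The median rank of the *Hoxb1* promoter was 20.5% by fold enrichment, 19.3% by pileup and 18.3% by -log10 q. Elements assigned to the 7 genes numbered 20 with curated RefSeq TSSs, and 39 with coding TSSs and 27 with GENCODE vM21 TSSs, both added after seeing the data. No paired analysis was made, because the labels do not say which libraries, if any, were paired. The replicate numbers used here are the last digits of the library titles, which run on over all groups and give no pairing. Pileups of 6 to 44 tags limit the precision of each value.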
